A study of Mus musculus with 17 samples.

Results

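A set of 10 genes used as markers of liver sinusoidal endothelium was examined across mouse liver progenitors, the hepatocyte and cholangiocyte cells derived from them, and primary liver cells. The genes were Stab1, Stab2, Lyve1, Cdh5, Pecam1, Ptprb, Kdr, Tek, Tie1 and Robo4. They were read from the probes that carried these gene names on an Agilent one-colour array, 12 probes for 10 genes, out of 39294 probes naming 31686 genes. All 10 genes passed the filter on dim probes, as did 26039 genes in all. Cdh5, Tek, Lyve1 and Tie1 passed it through primary-cell arrays alone, so counts over the members that passed are descriptions.

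The study compared cells differentiated in culture with primary cells. All 17 samples came from Foxl1-CRE; RosaYFP mice aged 6 to 10 weeks, in which the Foxl1 promoter drives Cre and Cre switches on a yellow fluorescent reporter. The groups were undifferentiated adult hepatic progenitor cells (n = 4), cells labelled differentiated hepatocyte (n = 4, here the hepatocyte condition), and cells labelled differentiated cholangiocyte (n = 3, the cholangiocyte condition). The primary cells were 4 samples of hepatocytes and 2 of cholangiocytes, the latter numbered 3 and 4. RNA came from liver samples and sorted cells, and the labels do not say which primary group was sorted. The labels give no culture agents or times. The labels also do not say that replicates came from separate animals, so p-values measure the spread between these samples, which may be technical.

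Liver sinusoidal endothelial cells line the fenestrated capillaries between plates of hepatocytes and take up waste molecules from blood through scavenger receptors. Like other endothelium they hold together through adhesion proteins and respond to vascular endothelial growth factor (VEGF), angiopoietins and Slit ligands through cell-surface receptors. Neither hepatocytes nor bile duct cells are known as a main source of these receptors, so in a bulk sample of either cell the genes can serve as a measure of accompanying endothelium. In bulk RNA, fewer cells of a type and less RNA per cell cannot be told apart.

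The probes themselves bear on how the values can be read. Tie1 and Tek are sister receptor kinases, and their probes lie in the part of the messages that the genes still share, shown here 5′ to 3′ with capitals for the 39 of 57 aligned bases that were identical, the Tek probe starting 3 bases further in.
Tie1 probe: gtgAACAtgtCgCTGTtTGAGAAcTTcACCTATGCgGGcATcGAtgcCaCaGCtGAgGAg
Tek probe: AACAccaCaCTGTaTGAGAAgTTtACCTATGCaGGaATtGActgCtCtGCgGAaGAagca
The remaining aligned bases differed throughout the length of both probes. Kdr was measured by a pair of probes that behaved differently, and the first 30 bases of each are shown with G and C in capitals.
Kdr probe A_55_P2094469: tGtttaaatGGaaGtGGtCCtGtCCCGGCt
Kdr probe A_51_P316553: CtaCtGtatCCtttaGaattttaaCCtata
G and C made up 55% of the 60 bases of the first Kdr probe and 35% of the second. By the array's own annotation on build mm9, the first lay at chr5:76330395-76330454 and the second at chr5:76329309-76329368, both on the minus strand, and whether they fall in coding sequence or untranslated region was not determined here.

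Arrays were compared on a log2 scale on which 0 is each array's 75th percentile of intensity. That percentile ran from 544 to 983 on the primary hepatocyte arrays and from 1741 to 2848 on the other 13 arrays. The number of probes called well above background ran from 23896 to 29227 per array, by the scanner software's test of a spot against its local surroundings. The dimmest level called well above background lay between -7.76 and -7.00 on the arrays of the other groups and between -6.55 and -5.62 on the primary hepatocyte arrays. The primary labels matched their markers: 10 hepatocyte markers averaged 7.97 to 8.31 on primary hepatocyte arrays and -5.24 to -2.31 on primary cholangiocyte arrays, and 10 cholangiocyte markers averaged -3.89 to -3.34 and 1.08 to 1.19. Hepatocyte markers averaged -5.36 to 0.04 on progenitor arrays, so the progenitor samples differed among themselves.

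The 10 endothelial genes were all detected in primary hepatocytes and on no other array. All 10 were well above background on each of the 4 primary hepatocyte arrays, against 4 to 6 of 10 on the 11 progenitor-derived arrays, 4 on primary cholangiocyte array 3 and 7 on array 4. Against undifferentiated progenitors, 8 of 10 were higher in primary hepatocytes, 1 was lower and 1 was not called at an adjusted p under 0.05 (limma, Benjamini-Hochberg over all genes). In this contrast 37.7% of all genes tested were called higher and 26.5% lower, and 64.2% were called in all. The median difference of the 10 genes was 4.46, against 0.45 over all genes. Ptprb and Stab1 had other patterns in the progenitor-derived cells, and Pecam1 and one Kdr probe were at readable levels everywhere. Which cells gave these levels in the progenitor-derived samples was not tested, so there they cannot be read as accompanying endothelium alone.

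**Figure D1:**
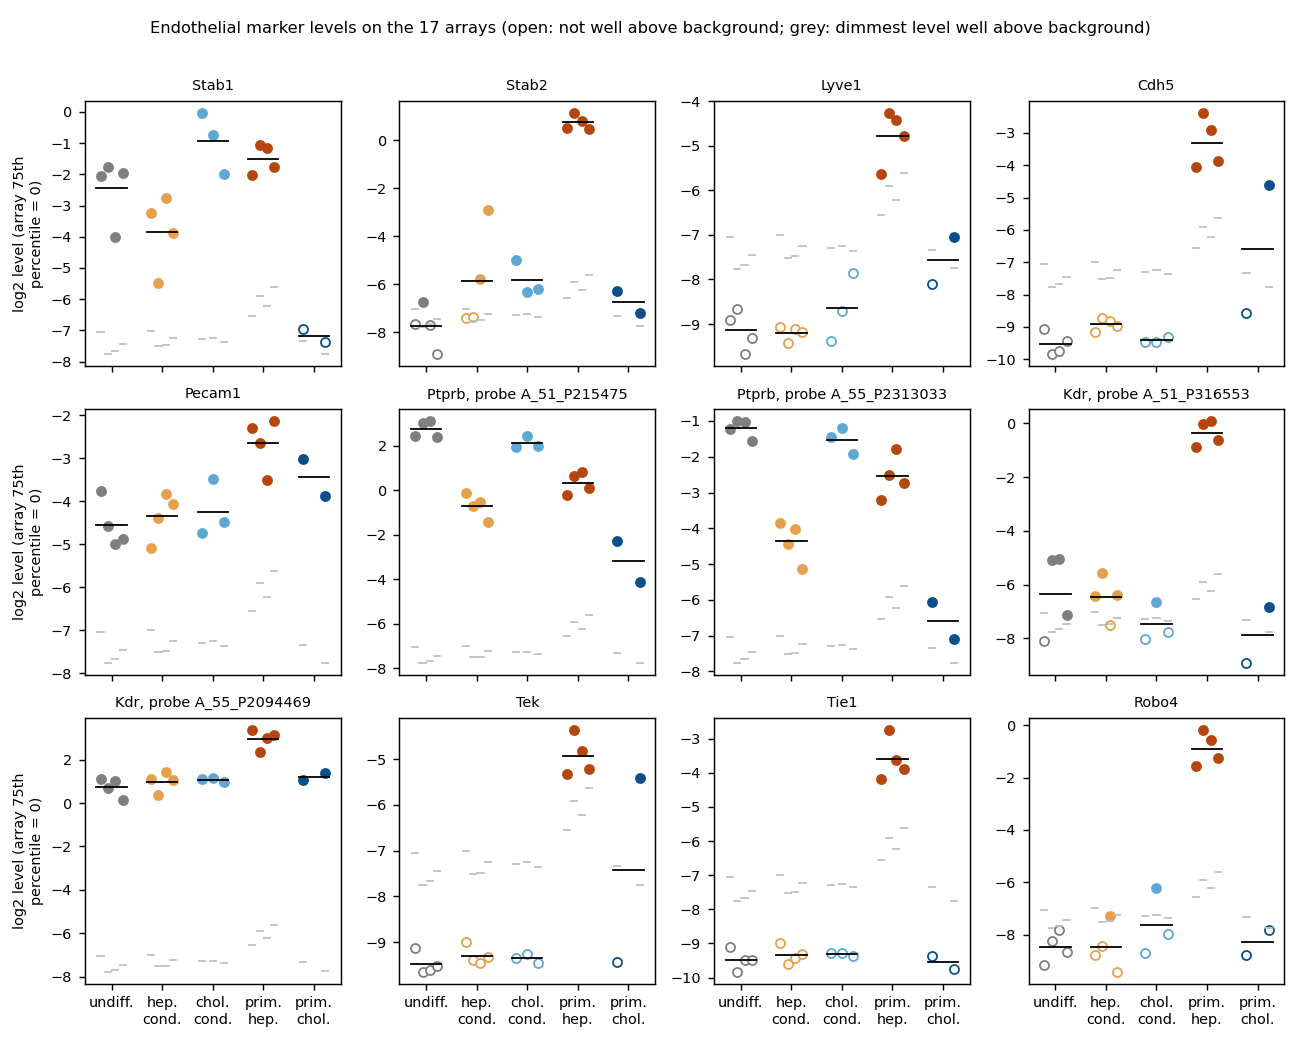
Levels of the 10 endothelial genes (12 probes) on the 17 arrays, in log2 units with each array's 75th percentile at 0, by group: undifferentiated progenitors, hepatocyte condition, cholangiocyte condition, primary hepatocytes and primary cholangiocytes. Each point is 1 array, filled where the probe was well above background and open where it was not. Black bars are group means, and short grey bars mark each array's dimmest level well above background. Stab2, Lyve1, Cdh5, Tek, Tie1, Robo4 and both Kdr probes were highest in primary hepatocytes, whereas Ptprb was highest in undifferentiated progenitors.

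Stab2 encodes stabilin-2, the hyaluronan-clearing scavenger receptor of the sinusoid. Its log2 levels were 0.51, 1.14, 0.81 and 0.48 on the 4 primary hepatocyte arrays. In undifferentiated progenitors they were -7.67, -6.73, -7.70 and -8.90, and only the second array was well above background. The hepatocyte condition gave -7.39, -7.38, -5.77 and -2.90, the cholangiocyte condition -5.00, -6.30 and -6.18, and primary cholangiocytes -6.26 and -7.20. Every primary hepatocyte array stood above all 13 others, and array 4 of the hepatocyte condition came next. The fitted difference from progenitors was 8.49 ± 0.80 (SE, adjusted p = 4.84e-07). With the 3 progenitor arrays that did not measure the gene set to their dimmest level well above background, Stab2 was 249-fold higher in primary hepatocytes. Stab2 was 177-fold higher in primary hepatocytes than in primary cholangiocytes (7.47 ± 0.98, adjusted p = 2.07e-05). Between the 4 other groups no Stab2 difference that was tested was called.

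Lyve1 encodes another hyaluronan receptor, shared by sinusoids and lymphatic vessels. It was well above background on the 4 primary hepatocyte arrays, at -5.62, -4.25, -4.43 and -4.79, and on primary cholangiocyte array 4, at -7.04. No array of the 3 progenitor-derived groups measured it, so the contrast with progenitors is a bound, the primary mean set against the dimmest level well above background on each progenitor array. Lyve1 was at least 6.53-fold higher in primary hepatocytes than in progenitors (fitted difference 4.37 ± 0.37, adjusted p = 1.55e-07). That bound holds for the main processing alone, since the fitted difference was as low as 1.41 over the alternatives.

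Stab1 encodes stabilin-1, a scavenger receptor found on sinusoidal endothelium and on some macrophages. Its pattern differed from that of Stab2. Levels were -2.04, -1.76, -4.02 and -1.96 in progenitors, and -3.23, -5.48, -2.75 and -3.89 in the hepatocyte condition. In the cholangiocyte condition they were -0.02, -0.75 and -1.99, and in primary hepatocytes -2.01, -1.07, -1.16 and -1.75. Only the primary cholangiocytes, at -6.95 and -7.38, were not well above background. Progenitors, the cholangiocyte condition and primary hepatocytes overlapped, and both primary cholangiocyte arrays lay below all 15 others. By group mean the order was the cholangiocyte condition (-0.92), primary hepatocytes (-1.50), progenitors (-2.45), the hepatocyte condition (-3.84) and primary cholangiocytes (-7.17).

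The 0.95 ± 0.62 by which primary hepatocytes exceeded progenitors in Stab1 was not called (adjusted p = 0.190, 95% interval -0.38 to 2.27). Before scaling, mean intensity was 296 in primary hepatocytes and 507 in progenitors, the other way round. The authors' deposited table gives that comparison a false discovery rate of 1.71% at a fold change of 1.86. Stab1 was at least 50.8-fold higher in primary hepatocytes than in primary cholangiocytes (adjusted p = 2.38e-05). It stood at least 75.9-fold higher in the cholangiocyte condition than in primary cholangiocytes (adjusted p = 0.000115) and at least 26.3-fold lower in primary cholangiocytes than in progenitors (adjusted p = 0.000645). The hepatocyte condition lay 2.92 ± 0.67 below the cholangiocyte condition (adjusted p = 0.00911), a call that was lost without array 1 of the cholangiocyte condition (-2.47, adjusted p = 0.0514).

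Cdh5 encodes VE-cadherin, the cadherin of endothelial junctions. Its levels on primary hepatocyte arrays were -4.05, -2.38, -2.91 and -3.87, and no array of the progenitor-derived groups was well above background. The primary cholangiocyte arrays disagreed, at -8.56, not above background, and -4.61, which was. Cdh5 was at least 18.1-fold higher in primary hepatocytes than in progenitors (fitted difference 6.22 ± 0.61, adjusted p = 7.56e-07).

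Pecam1 encodes the platelet endothelial adhesion molecule CD31, which leukocytes and platelets also carry. It was well above background on all 17 arrays. Levels were -2.29, -2.63, -3.51 and -2.14 in primary hepatocytes and -3.77, -4.58, -4.99 and -4.88 in progenitors. Primary cholangiocytes gave -3.01 and -3.87, and the 7 arrays of the hepatocyte and cholangiocyte conditions ran from -5.09 to -3.49. Primary hepatocytes lay above progenitors without overlap, by 1.91 ± 0.40 (3.77-fold, adjusted p = 0.000832). Before scaling, mean intensity was 135 in primary hepatocytes, 108 in progenitors and 270 in primary cholangiocytes. The level was thus higher than in progenitors before scaling too, by less, and lower than in primary cholangiocytes. With scaling to the array median the difference was 1.47 (adjusted p = 0.00485). Against primary cholangiocytes it was 0.80 ± 0.49 and not called (adjusted p = 0.191), but it was called with the slide as a block (1.26, adjusted p = 0.00227) and with normexp background correction (0.88, adjusted p = 0.0172).

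Ptprb encodes the receptor phosphatase VE-PTP, which acts on VE-cadherin and on the Tek receptor. It was the one gene of the 10 that was highest in undifferentiated progenitors. Probe A_51_P215475 read 2.45, 3.02, 3.09 and 2.39 there, from 1.93 to 2.41 in the cholangiocyte condition, and -0.12, -0.71, -0.53 and -1.44 in the hepatocyte condition. Primary hepatocytes gave -0.23, 0.65, 0.79 and 0.10, and primary cholangiocytes -2.27 and -4.13. Progenitors and the cholangiocyte condition overlapped, all other groups lay below both, and primary cholangiocytes were lowest. The other probe, A_55_P2313033, gave the same order of group means: -1.21, -1.53, -2.55, -4.36 and -6.58 in progenitors, the cholangiocyte condition, primary hepatocytes, the hepatocyte condition and primary cholangiocytes. Both probes were well above background on all 17 arrays.

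Ptprb was 5.31-fold lower in primary hepatocytes than in progenitors (-2.41 ± 0.39, adjusted p = 8.61e-05) and 61.3-fold lower in primary cholangiocytes than in progenitors (-5.94 ± 0.47, adjusted p = 1.61e-06). The other probe gave 2.54-fold and 41.4-fold. Ptprb was also the only member called between the hepatocyte condition and undifferentiated progenitors, where it fell by 3.44 on the log2 scale, a 10.8-fold difference (SE 0.39, adjusted p = 7.72e-05) and 8.87-fold by the other probe. The cholangiocyte condition differed from progenitors by -0.62 ± 0.42 and was not called (adjusted p = 0.565, 95% interval -1.52 to 0.28). Between the conditions, the hepatocyte condition was 7.04-fold lower than the cholangiocyte condition (-2.81 ± 0.42, adjusted p = 0.000591).

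Kdr encodes VEGF receptor 2, the main signalling receptor for VEGF-A. Probe A_55_P2094469, which stood for the gene because its mean was higher, read 3.35, 2.35, 3.01 and 3.15 in primary hepatocytes. Progenitors gave 1.12, 0.68, 1.02 and 0.16, and the 9 arrays of the 3 remaining groups ran from 0.38 to 1.42, so primary hepatocytes stood apart. The difference from progenitors was 2.22 ± 0.27 (4.65-fold, adjusted p = 6.5e-06), and from primary cholangiocytes 1.75 ± 0.33 (3.36-fold, adjusted p = 0.00055). Mean intensity before scaling was 6456 in primary hepatocytes and 6469 in primary cholangiocytes, so the latter difference arose with the scaling; it was 1.55 with the array median and 1.48 with quantile normalization, and was called under both.

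Probe A_51_P316553 separated the groups more widely. It read -0.89, -0.02, 0.08 and -0.63 in primary hepatocytes, -8.08, -5.07, -5.05 and -7.12 in progenitors, and -8.91 and -6.82 in primary cholangiocytes. It was well above background on 12 of 17 arrays, against 17 of 17 for the other probe. By this probe Kdr was 62.5-fold higher in primary hepatocytes than in progenitors (5.97 ± 0.68, adjusted p = 3.26e-06, measured on 3 of 4 progenitor arrays). On progenitor-derived arrays it was well above background on 7 of 11. Both probes were higher in primary hepatocytes than in each group they were compared with, by unequal amounts. Between primary cholangiocytes and progenitors they had opposite signs, -1.53 ± 0.83 and 0.47 ± 0.33, neither called (adjusted p = 0.231 and 0.372).

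Tek (Tie2) is the angiopoietin receptor and Tie1 its partner without a well-defined ligand of its own. Tie1 was the sharpest of the 10: it was well above background on the 4 primary hepatocyte arrays, at -4.18, -2.75, -3.61 and -3.88, and on none of the other 13, which ran from -9.83 to -9.00. Tek read -5.33, -4.36, -4.82 and -5.22 in primary hepatocytes and was not above background on the 11 progenitor-derived arrays. Primary cholangiocyte array 3 gave -9.44 for Tek and array 4 gave -5.40, just below the lowest primary hepatocyte array on this scale. Before scaling, mean Tek intensity was 27.7 in primary hepatocytes and 33.9 in primary cholangiocytes, the other way round. Tie1 stayed at background on that array (-9.76), so the probes did not read alike there. Against progenitors, Tie1 was at least 14.7-fold higher in primary hepatocytes (fitted difference 5.87 ± 0.27, adjusted p = 2.58e-10) and Tek at least 5.85-fold (4.54 ± 0.58, adjusted p = 9.61e-06).

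Robo4, the endothelial member of the Roundabout family of Slit receptors, read -1.55, -0.19, -0.57 and -1.27 in primary hepatocytes. Progenitors gave -9.18, -8.23, -7.84 and -8.66 and primary cholangiocytes -8.77 and -7.82, none well above background. Of the 7 arrays of the hepatocyte and cholangiocyte conditions, which ran from -9.42 to -6.21, one in each condition was well above background. Robo4 was at least 96.0-fold higher in primary hepatocytes than in progenitors (7.58 ± 0.55, adjusted p = 3.47e-08) and at least 100.2-fold higher than in primary cholangiocytes (7.40 ± 0.68, adjusted p = 6.42e-07).

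Stab2, Robo4 and Tie1 were among the genes with the widest rise in primary hepatocytes, and their promoters are shown because the genes moved together. The bases before each gene's annotated span on build GRCm38.p6, within the RefSeq promoter window of 250 bases, are written 5′ to 3′ along the gene. Every AGGAA, a form of the GGAA core of sites for ETS factors, is in capitals on either strand (AGGAA or TTCCT). Other forms, such as CGGAA, were neither marked nor counted.
Stab2, chr10:87008039-87008192, minus strand: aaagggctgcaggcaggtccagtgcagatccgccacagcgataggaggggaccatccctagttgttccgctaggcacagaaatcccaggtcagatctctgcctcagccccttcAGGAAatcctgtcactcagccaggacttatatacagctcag
Robo4, chr9:37401722-37401901, plus strand: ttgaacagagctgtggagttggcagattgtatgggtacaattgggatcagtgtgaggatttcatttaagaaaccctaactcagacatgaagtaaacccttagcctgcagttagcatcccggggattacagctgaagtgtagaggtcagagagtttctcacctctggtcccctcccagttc
Tie1, chr4:118489850-118490099, minus strand: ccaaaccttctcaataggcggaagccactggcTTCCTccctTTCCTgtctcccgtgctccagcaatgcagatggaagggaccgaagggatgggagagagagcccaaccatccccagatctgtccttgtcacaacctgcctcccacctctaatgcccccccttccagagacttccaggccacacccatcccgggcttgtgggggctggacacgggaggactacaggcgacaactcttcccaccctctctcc
AGGAA occurred 1 time in the Stab2 stretch of 154 bases, 0 times in the Robo4 stretch of 180 bases and 2 times in the 250 bases of Tie1. The windows of Stab2 and Robo4 reach 96 and 70 bases into the annotated gene, and their other matches lie there or across its edge. Over whole windows, 5 of the 6 members with an entry in the promoter table held AGGAA, and Kdr, whose window lies inside the annotated gene, had 0. It is a common string, present in 60.3% of 32851 mouse promoter windows of 250 bases. A match is a description of the letters and not of a bound site.

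The hepatocyte condition answers whether cells differentiated in culture carry the same markers as primary hepatocytes. On the scaled levels all 10 members were lower in the hepatocyte condition, where 33.7% of all genes were called lower and 25.9% higher (59.6% in all). The median difference was -4.39, against -0.33 over all genes. Stab2, measured on 2 of 4 arrays of the condition, was 90.6-fold lower by the same reckoning as for progenitors (fitted difference -6.60 ± 0.80, adjusted p = 7.4e-06), and Tie1 at least 13.0-fold lower (adjusted p = 3.94e-10). Robo4 was 82.8-fold lower with the 3 unmeasured arrays of the condition at their dimmest level well above background (fitted difference -7.58 ± 0.55, adjusted p = 4.53e-08). Stab1 was 5.05-fold lower (-2.34 ± 0.62, adjusted p = 0.00484). Ptprb was 2.04-fold lower with overlapping arrays (-1.03 ± 0.39, adjusted p = 0.0339) and 3.49-fold lower by its other probe (-1.80 ± 0.35, adjusted p = 0.000457). Before scaling, mean intensity by the first probe was 1325 in the hepatocyte condition and 1048 in primary hepatocytes, the other way round. By the other probe it was 106 and 144. The authors' deposited table gives false discovery rates of 0.76% and 0.04% for the 2 probes. By the first probe the call was lost with the array median as scale (-0.84, adjusted p = 0.0748), with slide as a block (-1.08, adjusted p = 0.0539), and without any one of hepatocyte condition arrays 2 and 4 and primary hepatocyte arrays 2 and 3 (-1.02, -0.78, -0.92 and -0.87).

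Few of the 10 markers were called between cultured cells and progenitors, and Cdh5, Tek, Tie1 and Lyve1 were not measured on any of these arrays. Of all genes, 15.3% were called between the hepatocyte condition and progenitors. Between the hepatocyte condition and undifferentiated progenitors, 0 of 10 were called higher and 1, Ptprb, lower, against 7.61% and 7.7% of all genes. Without undifferentiated array 3, Stab1 joined it (-1.92, adjusted p = 0.0454). Between the cholangiocyte condition and progenitors 0 of 10 were called by limma, where 0.783% of all genes were called higher and 0.599% lower (1.38% in all). At an unadjusted p under 0.05 there were 2 of 10, Stab1 (1.53 ± 0.67) and Stab2 (1.92 ± 0.86). The authors' deposited table gives these last a false discovery rate of 33.22% and 18.21%. Between the hepatocyte and cholangiocyte conditions, 2 of 10 were lower in the hepatocyte condition, Stab1 and Ptprb, and 0 were higher, against 8.4% and 6.97% of all genes.

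On the scaled levels, primary cholangiocytes carried far less of the set than primary hepatocytes. Mean intensity before scaling was higher in primary cholangiocytes for Pecam1 and Tek and near equal for Kdr by the probe that stood for it. For the other genes it was higher in primary hepatocytes. Of the 10 genes, 9 were higher in primary hepatocytes and 0 lower, where 28% of all genes were called higher and 21.6% lower (49.6% in all), and the median difference was 3.40, against 0.35 over all genes. The Tie1 level was higher by at least 15.3-fold (5.95 ± 0.33, adjusted p = 3.61e-09) and that of Ptprb by 11.5-fold (3.53 ± 0.47, adjusted p = 2.54e-05). Pecam1 was the gene not called, and Kdr, by the probe that stood for it (1.75 ± 0.33), had the smallest difference of the 9. By its other probe the Kdr difference was 7.50 ± 0.83 (adjusted p = 4.18e-06, limma over probes), among the largest. The differences of Lyve1 (2.79 ± 0.45), Cdh5 (3.28 ± 0.75) and Tek (2.49 ± 0.71) were set against 1 measured and 1 unmeasured cholangiocyte array. With the unmeasured array at its dimmest level well above background they came to 5.32-fold, 6.35-fold and 2.71-fold. Cdh5 and Tek also turned on which of the 2 cholangiocyte arrays was used. Without array 3 the Cdh5 difference was 1.31 (adjusted p = 0.0522) and the Tek difference 0.47 (adjusted p = 0.278). Arrays sat on 5 slides: on slide 3 primary hepatocytes exceeded cholangiocytes by 4.69 in Cdh5, 4.22 in Tek and 5.48 in Tie1, and on slide 4 by 0.56, 0.08 and 5.58. Each of those slides held 1 array of either group, so slide and array cannot be told apart.

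**Figure D2:**
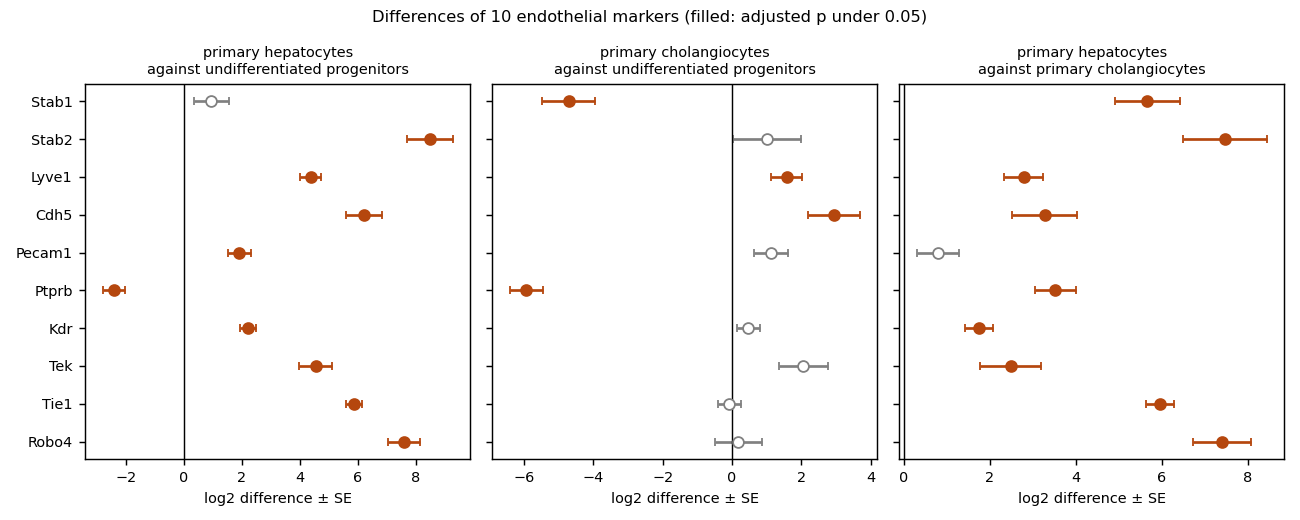
Differences of the 10 endothelial genes in log2 units with the standard error of the limma fit, for primary hepatocytes against undifferentiated progenitors, primary cholangiocytes against undifferentiated progenitors, and primary hepatocytes against primary cholangiocytes. Filled points had an adjusted p under 0.05. In the first panel 8 filled points lie right of 0 and that of Ptprb left of it, in the second 2 lie right (Cdh5, Lyve1) and 2 left (Stab1, Ptprb), and in the third 9 lie right.

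Against undifferentiated progenitors, primary cholangiocytes were higher in 2 of 10 genes and lower in 2, where 8.5% of all genes were called higher and 10.6% lower. The median of 0.74, against 0.01 over all genes, covers differences from -5.94 to 2.94, many of them against levels not above background. The lower pair, Stab1 and Ptprb, is described above. Cdh5 (fitted difference 2.94 ± 0.75, adjusted p = 0.0139) and Lyve1 (1.58 ± 0.45, adjusted p = 0.025) were the higher pair, but no progenitor array and only cholangiocyte array 4 measured either gene. Set against the dimmest levels well above background on the progenitor arrays, Cdh5 was at least 1.86-fold higher and no bound could be given for Lyve1, whose mean of -7.57 lay below theirs of -7.48. Without array 4 the fitted differences came to 0.97 (adjusted p = 0.231) and 1.05 (adjusted p = 0.240). The Cdh5 call was lost with slide as a block (adjusted p = 0.0505), and the authors' deposited table gives it a false discovery rate of 8.98%. In a fit to the 2 groups alone both calls were lost (adjusted p = 0.163 for Cdh5 and 0.0967 for Lyve1). The Lyve1 call was also lost without undifferentiated array 3 or 4 (adjusted p = 0.0582 and 0.0515), with the array median as scale (1.33, adjusted p = 0.0758) and with the replicate block (1.50, adjusted p = 0.0597). Tek, also measured on array 4 alone, was not called at 2.06 ± 0.71 (adjusted p = 0.0575) and was called without array 3 (4.07, adjusted p = 6.19e-06). Normexp background correction, which lifts dim values, turned Lyve1 (-0.27) and Tek (-0.10) the other way and left Cdh5 at 0.12.

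Endothelial genes outside the 10 did not all follow array 4. S1pr1, the sphingosine-1-phosphate receptor of endothelium, was at -9.07 on cholangiocyte array 3, not above background, and at -6.22 on array 4, above it. Icam2, an adhesion molecule of endothelium and platelets, was at -3.30 and -4.83, the other way round, and Vwf, von Willebrand factor, at -2.11 and -2.37. The mean of 31 other pan-endothelial markers was -5.16 and -4.61 on the 2 arrays, with 19 and 24 of them above background. The mean of the 17 Kupffer cell and macrophage markers was -5.53 and -5.43, with 11 and 9 above background. The 3 named genes were chosen after their values were seen.

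Compared with primary cholangiocytes, the cholangiocyte condition was higher in 2 of 10 genes, Stab1 and Ptprb, and lower in 1, Cdh5, where 11.9% and 7.62% of all genes were called. The median difference was 0.06, against 0.17 over all genes. Ptprb was 39.9-fold higher in the condition (5.32 ± 0.50, adjusted p = 7.95e-06) and 33.2-fold by its other probe. The Cdh5 difference of -2.83 ± 0.79 (adjusted p = 0.0222), at least 1.65-fold against the dimmest levels well above background in the condition, was -0.86 without primary cholangiocyte array 4 (adjusted p = 0.313), and was not called with the replicate block (-2.70, adjusted p = 0.0658). Removal of cholangiocyte condition array 1 or 2 also ended the call (adjusted p = 0.0550 and 0.0541), as did a limma fit to the 2 groups alone (adjusted p = 0.254). For Cdh5 here the authors' deposited table gives a false discovery rate of 16.31%.

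The gap between primary and cultured cells was then compared between lineages, as primary hepatocytes minus the hepatocyte condition, less primary cholangiocytes minus the cholangiocyte condition. It was larger on the hepatocyte side for 8 of 10 genes and smaller for 0, where 22.2% and 15.5% of all genes were called. The largest was that of Stab1, 8.58 ± 1.01 (adjusted p = 1.52e-05), where primary hepatocytes lay above and primary cholangiocytes below their cultured counterparts. Robo4 followed with 8.25 ± 0.90 (adjusted p = 7.99e-06) and Stab2 with 7.50 ± 1.31 (adjusted p = 0.000456). Pecam1 (0.90 ± 0.66, adjusted p = 0.293) and Tek (2.43 ± 0.94, adjusted p = 0.0566) were not called. Pecam1 was called with slide as a block (1.54, adjusted p = 0.00528) and with normexp background correction (1.07, adjusted p = 0.0308). The Cdh5 value of 2.78 (adjusted p = 0.0415) lost its call under most changes. It was 0.81 without primary cholangiocyte array 3 (adjusted p = 0.337), 2.65 with the array median (adjusted p = 0.0601) and 2.91 with the replicate block (adjusted p = 0.0684). Leaving out any 1 array of either cultured condition, or primary hepatocyte array 2 or 3, also ended the call (adjusted p from 0.0539 to 0.0745).

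The 4 primary hepatocyte arrays did not carry equal amounts of the markers. In 8 of the 10 genes arrays 2 and 3 both read higher than arrays 1 and 4: Stab1, Stab2, Lyve1, Cdh5, Ptprb, Tek, Tie1 and Robo4. Among 17966 genes well above background on the 4 arrays, 16% had that order and 17.2% the reverse. Pecam1 had the reverse order, as did Kdr by the probe with the higher mean, while the other Kdr probe had the order of the 8 genes. The spread was 1.67 in Cdh5 and 0.66 in Stab2 between the highest and the lowest array. Among the other lists, 10 of 12 sinusoidal markers, 15 of 24 pan-endothelial markers, 6 of 11 Kupffer cell and macrophage markers and 3 of 7 stellate cell markers had the order. So did 6 of 10 genes of the VEGF, angiopoietin and Slit pathways, 1 of 10 hepatocyte markers and 0 of 6 cholangiocyte markers. The order held in 8 of 10 genes with the array median or quantile scale and in 5 with normexp background correction. It was noticed in these values, it has no test, and each of the 4 arrays lay on a different slide, so slide and sample cannot be told apart.

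**Figure D3:**
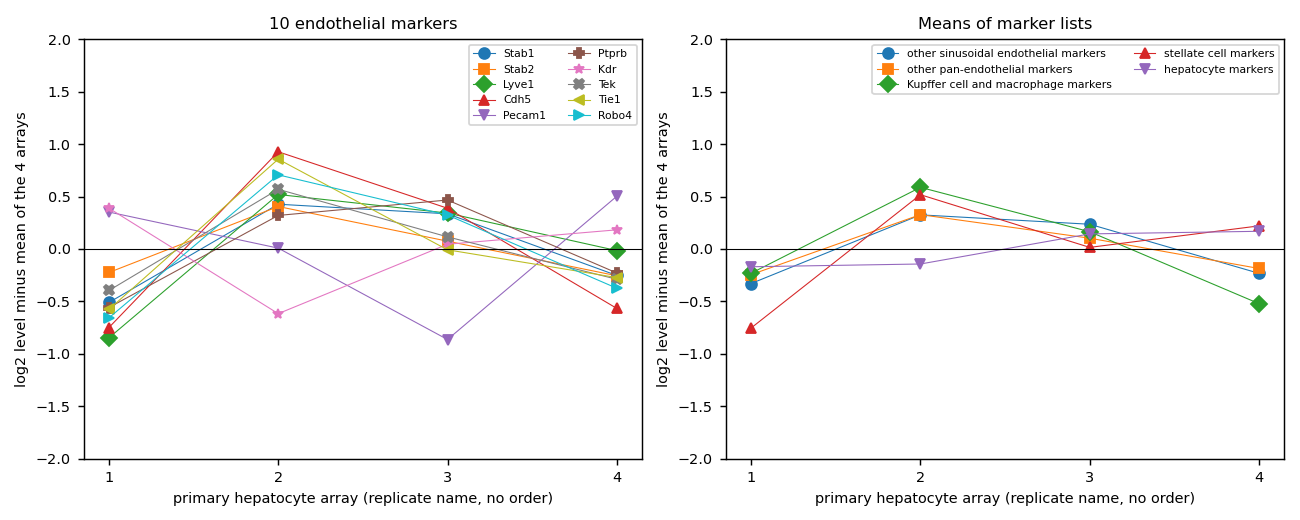
Levels on the 4 primary hepatocyte arrays, in log2 units relative to the mean of the 4, for the 10 endothelial genes (left) and for the means of 5 marker lists (right). Numbers on the horizontal axis are names of replicates and have no order, and the lines only join the points of a gene or list. Most endothelial genes are higher on arrays 2 and 3 than on 1 and 4, while Pecam1 and Kdr are not and the mean of the hepatocyte markers varies by less.

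Other endothelial genes were compared between primary hepatocytes and progenitors. Here and below, list counts cover only genes that passed the filter on dim probes. These were 14 of 15 sinusoidal, 31 of 37 pan-endothelial, and 15 of 16 VEGF, angiopoietin and Slit genes. Of Kupffer cell and macrophage markers 17 of 19 passed, and of stellate cell markers 12 of 13. A gene could pass through primary hepatocyte arrays alone, so these counts are descriptions. Shares of all genes are over genes that passed the same filter. Of 14 other sinusoidal markers tested, 11 were higher and 1 lower, with a median of 2.61, where 37.7% of all genes were higher and 26.5% lower (median 0.45). Fcgr2b, an inhibitory receptor for antibodies that clears immune complexes in the sinusoid, was at least 50.4-fold higher (7.21 ± 0.46, adjusted p = 8.9e-09). The orphan receptor Gpr182 (7.12 ± 0.40) and the lectin Clec4g (6.82 ± 0.50) rose about as much, and Rspo3, a Wnt-pathway ligand of central vein endothelium, was lower (-2.85 ± 0.53). Mrc1, the mannose receptor (1.17 ± 0.77), and Bmp2 (-0.65 ± 0.58) were not called. Of 31 other pan-endothelial markers, 22 were higher and 2 lower (median 2.65), led by S1pr1, at least 497-fold higher (10.42 ± 0.69), Icam2 (5.81 ± 0.43) and the receptor Gpr116 (5.60 ± 0.51). Ecscr, an endothelial chemotaxis regulator (-5.91 ± 0.34), and Egfl7, a matrix protein of vessels (-1.30 ± 0.39), were lower.

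Other ligands and receptors of the same pathways went both ways. Among 15 genes of the VEGF, angiopoietin and Slit pathways, 1 was higher and 5 lower in primary hepatocytes than in progenitors (median -0.17), where 37.7% of all genes were higher and 26.5% lower. The angiopoietin ligands Angpt1 (at least 6.67-fold lower) and Angpt2 (-3.68 ± 0.84) fell, as did the lymphatic VEGF receptor Flt4 (-2.38 ± 0.47). Vegfa, the ligand of Kdr, was higher by 0.99 ± 0.41 (adjusted p = 0.0486), a call that was lost with the array median or quantile scale, under which 0 genes of the list were higher. Flt1, VEGF receptor 1 (-1.60 ± 0.75), and the placental growth factor gene Pgf (-1.60 ± 0.84) were not called.

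Markers of other non-parenchymal cells were examined in the same contrast, with the same shares of all genes. Of 17 Kupffer cell and macrophage markers, 13 were higher and 2 lower in primary hepatocytes than in progenitors (median 3.09), with Vsig4 at least 51.2-fold higher, C1qc at least 27.6-fold and Tyrobp at least 19.5-fold. Cd68 (-1.09 ± 0.33, which turned positive with normexp background correction) and Itgam (-0.70 ± 0.26) were lower. The mean of the list ran from -3.57 to -2.46 on primary hepatocyte arrays and from -6.62 to -5.43 on the other 13, with 12 to 16 and 7 to 11 of 17 genes well above background. Of 12 stellate cell markers, 8 were higher and 0 lower (median 1.97), among them Dcn, decorin (6.55 ± 0.88), Lrat, the enzyme that stores retinol (4.94 ± 0.66), and Rgs5, a pericyte marker (4.77 ± 1.70). Their mean ran from -5.41 to -4.14 on primary hepatocyte arrays and from -7.71 to -5.15 on the others. The part of these cell types in the levels of Stab1, Pecam1 and Lyve1 was not tested.

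Against primary cholangiocytes, 13 of the 14 other sinusoidal markers were higher in primary hepatocytes and 0 lower, and 18 of the 31 pan-endothelial markers were higher and 4 lower. The 4, of which the last falls outside the rule for naming genes, were Sox17 (-8.53 ± 0.95), Ecscr (-4.68 ± 0.42), Rhoj (-4.53 ± 1.28) and Vwf (-2.11 ± 0.80). Vwf is low in normal sinusoids and strong in larger vessels, and Sox17, a transcription factor of arterial endothelium, is also known from bile duct cells. Of 17 Kupffer cell and macrophage markers, 10 were higher and 2 lower, and of 12 stellate cell markers 3 were higher and 1 lower. Over all genes the shares in this contrast were 28% higher and 21.6% lower. Only the higher share was close to that of the stellate cell markers, whose lower share was smaller.

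**Figure D4:**
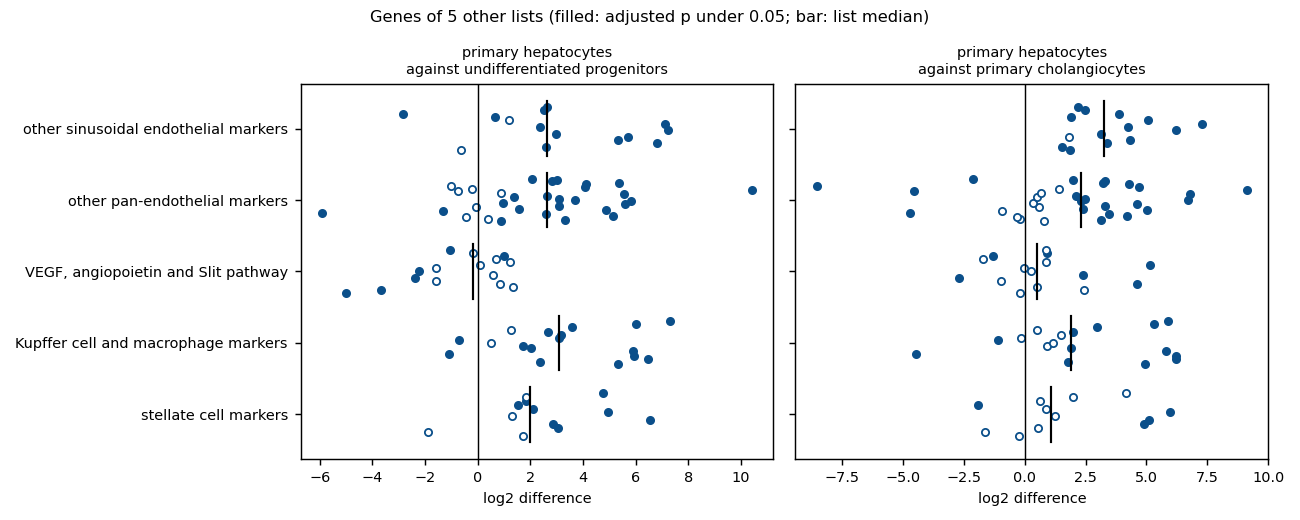
Differences of the genes of 5 other lists in log2 units, for primary hepatocytes against undifferentiated progenitors (left) and against primary cholangiocytes (right). Each point is 1 gene, filled at an adjusted p under 0.05, and black bars are list medians. Median bars of the sinusoidal and pan-endothelial lists lie at 2.61 and 2.65 on the left and at 3.26 and 2.32 on the right, and the bar of the VEGF, angiopoietin and Slit list lies at -0.17 and 0.51.

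Across the 17 arrays, the 10 members did not form 1 tight group. Each gene's Pearson correlation with the mean of the other 9 was 0.97 for Robo4 and Tie1, 0.92 for Lyve1, 0.91 for Stab2 and Kdr, 0.85 for Cdh5, 0.84 for Tek, 0.71 for Pecam1, 0.36 for Stab1 and -0.12 for Ptprb. The arrays share their groups, so these values mostly describe primary hepatocytes against the rest. Of all other genes, the 10 closest to the members' mean had r between 0.983 and 0.992 over 17 arrays, and none was on the marker lists. They included Aspscr1 (0.992), Pgrmc1 (0.989), Inhbe (0.988), Hlf and Inhbc (both 0.984). Inhbe and Inhbc encode activin subunits made by hepatocytes and Hlf a liver transcription factor. These genes were chosen for their likeness. In the hepatocyte condition the list of hepatocyte markers differed from the members, with means of 4.70, -0.05, 4.17 and -0.79 on arrays 1 to 4. The members' means there were -5.97, -6.32, -5.56 and -5.74. Whether the members' levels follow hepatocyte content was not tested.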

How the data were processed

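Each of the 17 samples was hybridised to 1 one-colour Agilent array with Cy3-labelled, amplified cDNA, per the labels. The deposited scanner files hold spot intensity (gProcessedSignal), background-corrected by the authors' Agilent Feature Extraction software, version 10.5.1.1 per the file headers and 9.53 per the submitters' processing notes. Probe positions on mm9 come from the arrays whose headers name that build (13 of 17). The authors' deposited table gives signed fold changes, a score, with false discovery rates in percent per the file headers. How its values were normalized and tested is not given in the sources used here, and its entries without a finite number were treated as missing.

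From the intensity, log2 values were taken relative to each array's 75th percentile. Control spots (1377 of 44397) and 135 of 39429 probes with an outlier flag were left out, and no probe spot was saturated (0). Probes had to be well above background on at least 2 arrays (32305 probes were), and the probe with the highest mean stood for a gene (26039 genes). One limma fit (version 3.58.1, R 4.3.3) of the 5 groups over all arrays gave moderated tests, with p-values adjusted by Benjamini-Hochberg over all genes and a threshold of 0.05. The number of arrays limits the precision. "At least" folds set the brighter group's mean against the dim group's mean of, per array, the dimmest level well above background or the probe's own level if higher. They hold for this background correction and scaling, and some fitted differences under the alternatives fell below them. Where only some arrays of the dim group measured a gene, the same fold is given with their number; this was added after the data were seen. The fit was tested on simulated arrays for the comparison of primary hepatocytes with undifferentiated progenitors (26039 genes). It recovered 30%, 70%, 90% and 96% of genes changed by 1, 2, 4 and 6 on the log2 scale, with 5 false calls. The simulation changed only 50 genes per size, in primary hepatocytes, with independent normal noise and no background floor, slide or pairing effect. In the data 64.2% of genes were called in this contrast, so these rates need not hold there.

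The 10 genes and the 7 marker lists were chosen with earlier results of these data known. Named list genes were up to 3 per direction by size among those called and well above background on every array of the higher group, and up to 2 not called; the 10 genes most like the members' mean were taken by Pearson's r. The counts of lists under other scalings and the order of the primary hepatocyte arrays were added after the data were seen. Sequences of probes come from the deposited files, and promoters from RefSeq on GRCm38.p6 (6 of 10 members matched). Hybridisation numbers in the titles paired progenitor with cholangiocyte condition arrays. The r between deviations from the group means was 0.28 to 0.39 in 3 pairs, each of 6 arrays best with its own number. All 4 arrays in the 2 pairs of primary hepatocytes and primary cholangiocytes were also best with their own number (r 0.05 and 0.14). The deviations of 2 cholangiocyte arrays from their mean mirror each other, so pairing there cannot be decided. The cholangiocyte condition and primary cholangiocytes shared number 3 alone and could not be judged. By this criterion no other groups were paired. Progenitor and hepatocyte condition pairs had r from -0.15 to 0.52, the highest of any pair, but only 2 of their arrays were best with their own number. The main fit had no term for pairing. Alternatives were background correction, scaling, filters, probe choice, slide, replicate block, fits to 2 groups and leaving out each array.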

Additional observations from a re-analysis of the deposited data

Results flagged for a closer look

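Stab1 on undifferentiated array 3 stood apart from the 3 other progenitor arrays, at -4.02 against -2.04, -1.76 and -1.96 (Dixon's criterion). Chance marks about 1 in 20 groups in this way, and 36 groups of 4 arrays were examined.

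The gap between primary and cultured cells differed between the hepatocyte and cholangiocyte lineages, by a test of the difference itself, in 8 genes. In log2 units the difference was 8.58 for Stab1, 8.25 for Robo4, 7.50 for Stab2, 6.34 for Ptprb, 5.99 for Tie1, 3.34 for Lyve1, 2.78 for Cdh5 and 1.84 for Kdr. By its other probe Kdr gave 6.48 and Ptprb 6.86. Without primary cholangiocyte array 3 the Cdh5 value was 0.81 (adjusted p = 0.337, limma).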

How the results depend on the processing

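Of 1063 values of single genes under alternatives, 1002 kept their direction and their side of the threshold, 43 lost a call, 12 gained one and 6 reversed. The 9 genes called between primary hepatocytes and progenitors were 9 whichever array was left out. Leaving out 1 array gave 2 to 5 genes called between primary cholangiocytes and progenitors (2 without primary cholangiocyte array 4), 1 to 2 between the hepatocyte condition and progenitors, 9 to 10 between that condition and primary hepatocytes, 1 to 2 between the conditions, 2 to 4 between the cholangiocyte condition and primary cholangiocytes, 7 to 9 between the primary groups, 7 to 9 for the difference between lineages, and 0 between the cholangiocyte condition and progenitors. The count for primary cholangiocytes against progenitors fell from 4 to 2 with normexp background correction and in the fit to the 2 groups alone, and that between the conditions from 2 to 1 in the fit to the 2 groups alone. Reversed values with normexp were -0.10 for Tek and -0.27 for Lyve1 in primary cholangiocytes against progenitors, and 0.25 for Cdh5, 0.42 for Tek and 0.64 for Lyve1 in the cholangiocyte condition against primary cholangiocytes. Without primary cholangiocyte array 4, Tek in that comparison was 0.083, and without array 3 it was -3.95. The cause was not tested. With the replicate block the counts were 9, 3, 10, 2, 9, 1, 0 and 2 in the 8 comparisons, in the order primary hepatocytes and primary cholangiocytes each against progenitors, each condition against its primary cells, the primary groups, each condition against progenitors, and the conditions, and 7 for the difference between lineages. It ended 3 calls, Lyve1 between primary cholangiocytes and progenitors and Cdh5 in 2 comparisons, and no other. Scaling to the array median moved the median of all genes from 0.45 to -0.00 in primary hepatocytes against progenitors, and the share of higher calls from 58.6% to 45.1% (47.0% with quantile normalization). Signal over background limits Cdh5, Tek, Tie1, Lyve1 and Robo4 in progenitor-derived cells to bounds. For primary hepatocytes against progenitors those bounds were 4.18, 2.55, 3.88, 2.71 and 6.58 in log2 units. Over the alternatives the lowest fitted differences fell below them, at 2.07, 1.46, 1.85, 1.41 and 3.69, and each stayed called.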
